A study of Mus musculus with 18 samples.

Results

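The interferon regulatory factors are transcription factors that bind the promoters of interferons and of the genes that interferons induce. The 8 family genes described here are Irf1, Irf2, Irf3, Irf4, Irf5, Irf7, Irf8 and Irf9, chosen by gene symbol among the 21734 protein-coding genes of the count table. All 8 were among the 11357 genes that passed a filter on low counts, Irf4 only because of its resting libraries. The genes lie on GRCm38 at chr11:53770014-53778374 (Irf1), chr8:46739732-46847458 (Irf2), chr7:44997648-45002848 (Irf3), chr13:30749226-30766976 (Irf4), chr6:29526625-29541871 (Irf5), chr7:141262706-141266481 (Irf7, minus strand), chr8:120736358-120756694 (Irf8) and chr14:55603571-55610030 (Irf9).

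In macrophages, IRF3 and IRF7 are phosphorylated downstream of Toll-like receptors and RNA sensors and then switch on the interferon-β gene, whereas IRF5 is activated through MyD88 and drives inflammatory cytokines. Secreted interferon signals through its receptor to ISGF3, a complex that contains IRF9 and STAT2 and binds the interferon-stimulated response element (ISRE) of many antiviral genes, among them Irf7 itself. IRF1 is an activator induced by interferon-γ and NF-κB, IRF2 competes with it for DNA, and IRF4 and IRF8 bind together with PU.1 in cells of the immune system.

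RNA was sequenced from bone marrow-derived macrophages (BMDMs), marrow cells grown for 8 to 9 days in 10 ng/ml M-CSF. The marrow came from mice of a 129/B6 mix, 3 of each genotype, whose age the labels give as 6 to 7 months. WT mice carry normal miR-146a, KO mice lack it, and 3'F mice carry a miR-146a whose seed is kept and whose 3′ part is exchanged with the opposite strand of the hairpin. Both alleles are germline changes made in embryonic stem cells, so every cell of the animal carries them, and the 3'F allele was compared with WT and KO to see how far the 3′ part matters. Cultures were left resting or given 1 ng/ml LPS, a bacterial lipopolysaccharide sensed by TLR4, for 16 h, which makes 6 groups of 3 libraries. The lines were bred as separate colonies, and with 3 mice per genotype the p-values measure the spread between these cultures.

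Libraries held 4071084 to 19818043 counts, and 2 resting libraries stood apart. Resting KO replicate 3 lay at 19.7 on the first principal component of log2 expression, against −28.2 and −31.4 for the other resting KO libraries. The LPS libraries ran from 17.4 to 70.6 on that component, so this resting library lay within their range. Resting 3'F replicate 3 was the shallowest library and lay at 50.3 on the second component, against −4.50 and −5.32. Many results that rest on either are given with and without it or library by library, but not all. The macrophage markers Csf1r, Adgre1 and Cd68 were at 544 CPM or more in every library, where CPM is the count scaled for library size. The B-cell, T-cell, mast-cell and erythroid lists each summed to at most 1.17 CPM, the fibroblast list to at most 3.51 CPM and the neutrophil list to 12.8 to 66.5 CPM. The table lists protein-coding genes, so loss of miR-146a in the KO was not checked here. Its known targets Irak1 and Traf6 differed from WT by 0.22 and 0.26 on the log2 scale in resting KO, neither called (adjusted p = 0.527 and 0.357, edgeR).

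The mature microRNAs are shown first because they define the genotypes. Capitals mark the seed, nucleotides 2 to 8. RefSeq places miR-146a-5p at chr11:43374435-43374456 on the minus strand and its relative miR-146b-5p at chr19:46342790-46342811 on the plus strand (GRCm38.p6), and the altered strand is the 20-base guide of the mimic that the study designed after its 3'F allele.
miR-146a-5p: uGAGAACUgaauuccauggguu
3'F guide strand: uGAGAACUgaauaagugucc
miR-146b-5p: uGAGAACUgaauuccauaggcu
The 3'F strand differed from miR-146a-5p at 8 of 20 positions, running from position 13 to position 20, and kept the seed. miR-146b-5p shares the seed and differed at 2 of 22 positions.

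None of the 8 factors held a seed match of 7 bases or more in its longest annotated 3′ UTR (502 to 3309 bases, GENCODE M21). Such a match was present in 18.4% of 20657 genes, and in 19.4% of those whose 3′ UTR is in the same range of length. Irf9 held matches of 6 bases at bases 28 to 33 and 922 to 927 after its stop codon, shown because they were the only pairing found, with the match in capitals.
Irf9 site 1: ctccatggaaatagacttGTTCTCcac
Irf9 site 2: ttgcctgcctcctgctttGTTCTCtgt
Irf9 aside, the members held no 6-base match to nucleotides 2 to 7 in that 3′ UTR, the only 6-base match searched. A match of 7 bases was 1 to nucleotides 2 to 8, or to 2 to 7 with an A after it. A match is a description of sequence only.

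Promoters were searched on both strands for the ISRE as GAAA, 2 bases of any kind and GAAA again, and for the GAS, the interferon-γ activated element, as TTCNNNGAA, in the RefSeq windows from 250 bases before to 50 after each start (11 windows for the 8 genes). The ISRE letters occurred in 3.44% and the GAS letters in 8.3% of all 32851 windows. Irf1 held 1 GAS, Irf2 held 1 ISRE and 1 GAS, and Irf8 held 2 GAS, while the windows of Irf3, Irf4, Irf5, Irf7 and Irf9 held neither. The stretches with the motifs are printed on the plus strand of GRCm38.p6, motifs in capitals, because they are the only matches in the family. They are chr11:53769904-53769952 for Irf1, chr8:46739495-46739549 for Irf2 and chr8:120736167-120736233 for Irf8, all upstream of the annotated start.
Irf1: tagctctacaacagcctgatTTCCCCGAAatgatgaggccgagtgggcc
Irf2: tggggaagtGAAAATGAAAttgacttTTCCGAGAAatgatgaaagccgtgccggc
Irf8: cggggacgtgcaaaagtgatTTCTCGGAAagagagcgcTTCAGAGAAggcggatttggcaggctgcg

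In resting WT cells the family was made up mainly of Irf5 and Irf8. Per kb of exon, the scale used to compare genes, Irf5 stood at 69.0 ± 8.10 CPM per kb (SD, n = 3) and Irf8 at 52.7 ± 3.68. Irf9 (14.3 ± 2.1) and Irf1 (12.5 ± 1.84) followed with overlapping libraries, then Irf3 (9.72 ± 0.41) and Irf2 (9.10 ± 1.05), which overlapped too. Irf7 was seventh at 4.50 ± 2.25 CPM per kb and Irf4 last at 0.31 ± 0.01. The resting 3'F libraries gave the same order of means, with Irf5 and Irf8 overlapping.

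In resting KO the mean of Irf7 was the highest, at 123 CPM per kb, but only through replicate 3 (337). In replicates 1 and 2 Irf7 stood at 20.2 and 13.3, below Irf5 (95.4 and 95.9), Irf8, Irf1 and Irf9. Its libraries overlapped those of Irf5 (mean 109). With LPS, Irf7 headed the order of means in all 3 genotypes, at 183 ± 89.3 CPM per kb in WT, 285 ± 33.6 in KO and 179 ± 15.3 in 3'F. In WT its libraries overlapped those of Irf5 (91.2 ± 5.97), while in KO and 3'F they lay above every Irf5 library. Its share of the summed family level in WT was 2.57% ± 1.12 at rest and 39.3% ± 9.53 with LPS, and the 3'F shares were 2.76% ± 0.42 and 40.1% ± 0.85. In KO the resting share was 7.83%, 5.42% and 50.1% in replicates 1, 2 and 3, and with LPS it was 47.1% ± 2.32. The summed level of the 8 genes was 172 ± 11.2 CPM per kb in resting WT and 446 ± 125 with LPS, and in 3'F it was 169 ± 23.0 and 446 ± 32.8. In KO it was 391 ± 243 at rest, where replicates 1, 2 and 3 stood at 258, 244 and 672, and 606 ± 73.8 with LPS. Fewer cells expressing a gene and less RNA per cell cannot be told apart in these bulk samples.

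**Figure D1:**
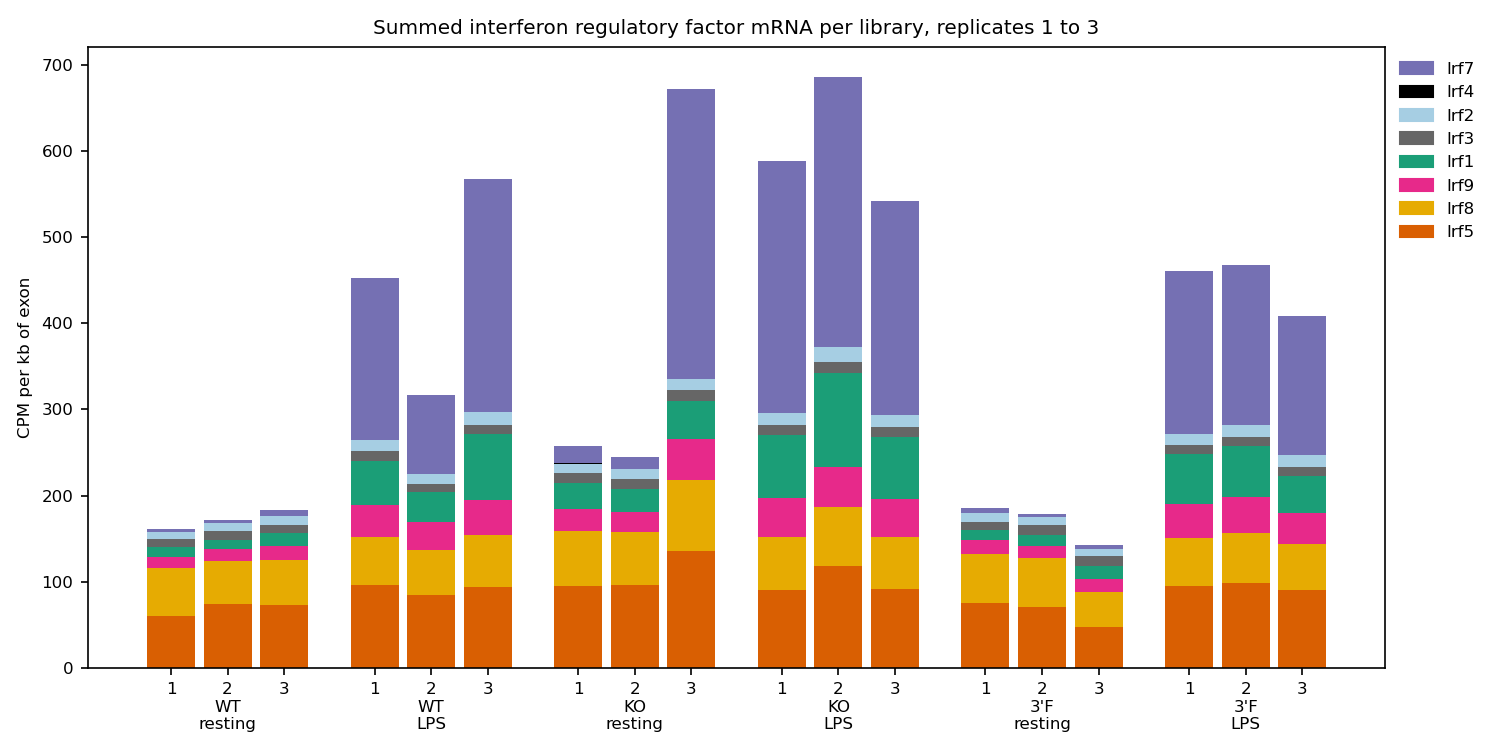
Summed level of the 8 interferon regulatory factor mRNAs in each of the 18 libraries, in CPM per kb of exon, stacked by gene, with replicates 1 to 3 of each group side by side. Irf7 (top segment) is a thin band in resting WT and 3'F libraries and the tallest segment in all 9 LPS libraries and in resting KO replicate 3, where it reached 50.1% of the sum.

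**Figure D2:**
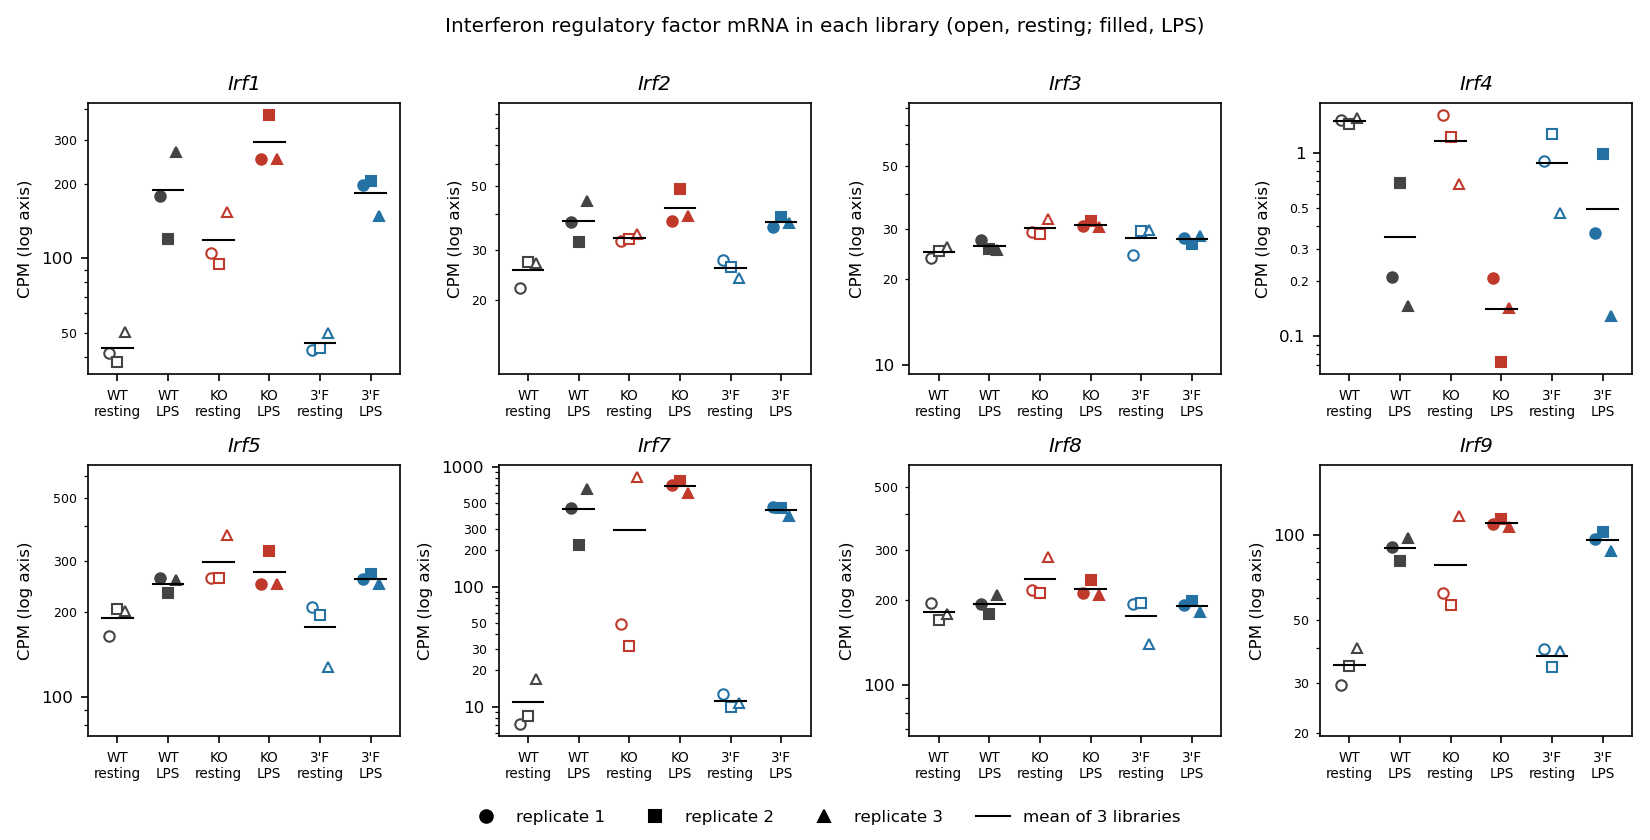
CPM of each factor in the 18 libraries on log axes that differ between panels (marker shape, replicate; open, resting; filled, LPS; bar, mean of 3 libraries). Irf1, Irf7 and Irf9 rose with LPS in WT and 3'F and were already higher in resting KO, where replicate 3 of Irf7 (815 CPM) lay above replicates 1 and 2 (48.8 and 32.0 CPM).

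In WT cells LPS raised 4 of the 8 factors, Irf1, Irf2, Irf7 and Irf9, and lowered Irf4. Irf4 passed the filter on low counts only through its resting libraries, where it is high, so its calls with LPS are no support. Over all genes tested 16.3% were called higher and 12.3% lower, a call being an adjusted p under 0.05. The median log2 difference of the 8 was 0.49, against 0.02 over all genes.

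Of the factors that signalling proteins activate, Irf7, the amplifier of type I interferon, changed most. Its WT libraries read 7.16, 8.36 and 17.1 CPM at rest and 454, 221 and 653 CPM with LPS. Every LPS library lay more than 10 times above every resting one. The difference was 5.36 ± 0.96 (SE) on the log2 scale, a 41.1-fold rise (adjusted p = 0.00061). Irf3, which is present before stimulation, read 23.8 to 25.9 CPM at rest and 25.4 to 27.6 CPM with LPS, groups that overlapped (log2 difference 0.07, 95% interval −0.13 to 0.27). Irf5 read 164, 204 and 201 CPM at rest and 262, 232 and 258 CPM with LPS, and although the groups did not overlap its difference of 0.40 ± 0.18 was not called (adjusted p = 0.0999).

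Irf9, the DNA-binding subunit of ISGF3, read 29.6, 34.6 and 39.8 CPM in resting WT and 90.7, 80.9 and 97.5 CPM with LPS. Every LPS library was at least 80.9 CPM, and the rise was 1.37 ± 0.20 (2.59-fold, adjusted p = 0.00012). Irf1, the interferon-γ and NF-κB responsive activator, read 41.6, 38.2 and 50.6 CPM at rest and 178, 120 and 269 CPM with LPS. Its groups did not overlap, and it rose by 2.12 ± 0.27 (4.35-fold, adjusted p = 2.6e-05). Irf2, its competitor, went from 21.9, 27.0 and 27.0 CPM to 37.5, 31.9 and 44.3 CPM, also without overlap, a smaller rise of 0.58 ± 0.13 (1.5-fold, adjusted p = 0.0033).

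The partners of PU.1 differed from these. Irf8, a determinant of monocytes and macrophages, read 170 to 195 CPM at rest and 178 to 207 CPM with LPS, with a log2 difference of 0.09 (95% interval −0.19 to 0.38). Irf4, known for alternative activation and for dendritic and B cells, was close to the limit of detection, with 23, 19 and 16 counts in resting WT and 3, 10 and 2 with LPS. All LPS libraries lay below all resting libraries, and Irf4 fell by 2.07 on the log2 scale (SE 0.57, adjusted p = 0.012). The ratio of summed counts, scaled for depth, was 0.236 (95% interval for counting error alone 0.124 to 0.421). Without LPS replicate 1 or LPS replicate 3 of WT, Irf4 was no longer called (largest adjusted p = 0.0656).

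In 3'F cells 5 factors were called higher with LPS and 0 lower, against 17.2% and 14% of all genes. Irf7 went from 12.8, 9.97 and 10.8 CPM to 459, 450 and 391 CPM, with no overlap, a rise of 5.27 ± 0.96. Irf1 (2.03 ± 0.27), Irf9 (1.35 ± 0.20) and Irf2 (0.53 ± 0.13) also rose, each with LPS libraries above all resting ones. Irf5 rose by 0.56 ± 0.18 (adjusted p = 0.025), but this call was lost without resting 3'F replicate 3 (0.34, adjusted p = 0.115) and without LPS replicate 1 or replicate 2. Irf4 had 16, 22 and 2 counts at rest and 5, 18 and 1 with LPS, groups that overlapped, and a log2 difference of −0.78 ± 0.56 that was not called.

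In KO cells only Irf1 and Irf4 were called with LPS, 1 of 8 higher and 1 lower, where 14.3% and 12.6% of all genes were called. Irf1 went from 105, 95.2 and 154 CPM to 252, 379 and 251 CPM. The groups did not overlap and the rise was 1.32 ± 0.26 (2.49-fold, adjusted p = 0.0012). Irf4 fell from 26, 16 and 6 counts to 3, 1 and 2, a log2 difference of −3.01 ± 0.67 (adjusted p = 0.0032) and a count ratio of 0.113 (0.0394 to 0.264). As in WT, its call is no support because of the filter.

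Irf7 read 48.8, 32.0 and 815 CPM in resting KO and 709, 760 and 601 CPM with LPS. The 2 lower resting libraries lay below all LPS libraries and the resting library of replicate 3 lay above all of them. The LPS difference was 1.21 ± 0.79 (95% interval −0.47 to 2.9, adjusted p = 0.283), and without resting KO replicate 3 it was 4.09 (adjusted p = 2e-06). With animals as a block it was 2.9 (adjusted p = 0.0314), and over the alternatives that kept every library the adjusted p ran from 9.8e-08 to 0.481. Irf9 read 62.5, 56.5 and 116 CPM at rest and 109, 113 and 106 CPM with LPS, again with replicate 3 as the high resting library. Its difference of 0.49 ± 0.20 was not called (adjusted p = 0.0786) and was 0.88 without that library (adjusted p = 5.3e-05). Without it 4 of the 8 factors were called, the others being Irf1 and Irf4, and the shares of all genes called also went up, to 20.2% higher and 14.9% lower.

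Each genotype's resting and LPS cultures share a replicate letter that was read as 1 animal. For KO replicate 3 this reading is the least secure, since its resting library was closest to LPS replicate 2. Elsewhere it is weakly backed too, with deviations from the group mean correlated at r from 0.03 to 0.32 over the 9 pairs. Within animals, Irf1 and Irf2 were higher with LPS in 9 of 9. Irf4 was lower in 9 of 9, but this is no support because of the filter. Its reads were few, with 2 at rest and 1 with LPS in 3'F replicate 3. How many of all genes move 1 way in 9 of 9 was not counted. Irf7 rose by 4.70 to 5.96 in WT animals and by 5.15 to 5.47 in 3'F animals on the log2 scale, while in KO animals the differences were 3.86, 4.56 and −0.44. Irf9 likewise rose by 1.22 to 1.61 in WT, by 1.17 to 1.57 in 3'F, and by −0.13 to 1.00 in KO, where the lowest value belonged to replicate 3. Irf5 was higher with LPS in 3 of 3 WT and 3 of 3 3'F animals and in 1 of 3 KO animals.

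**Figure D3:**
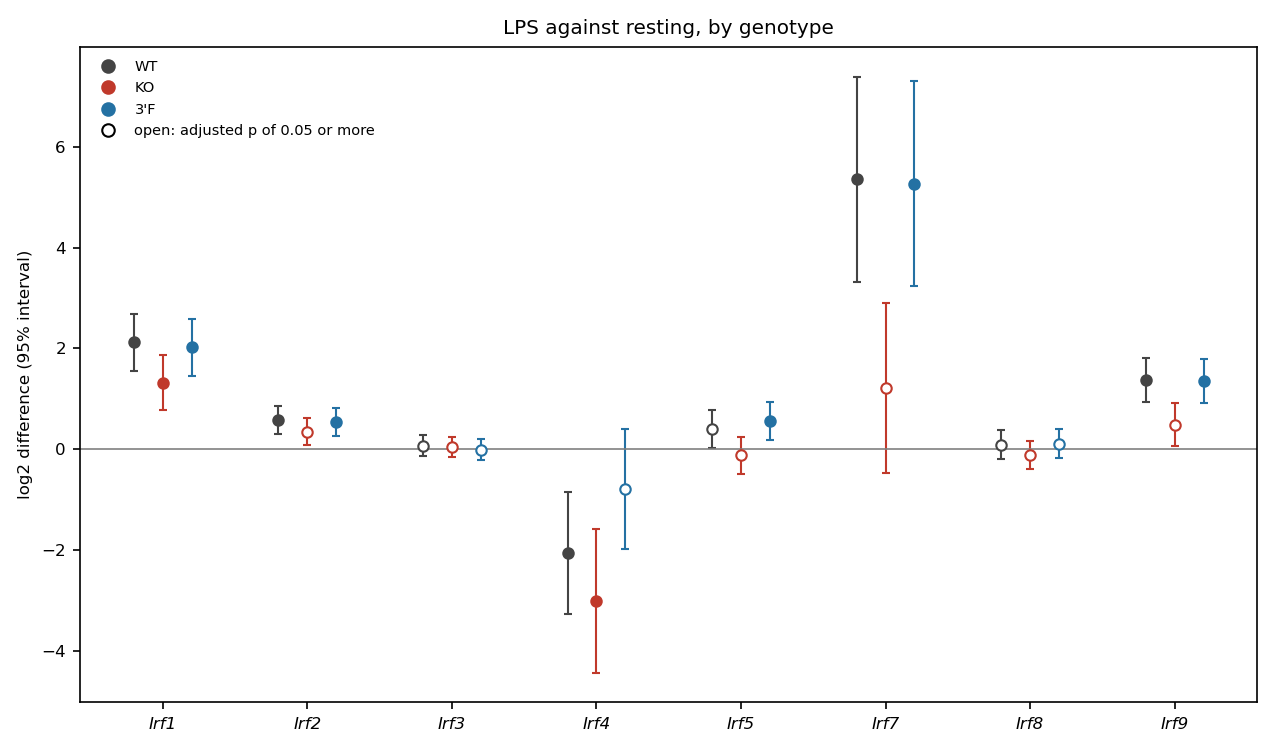
Log2 difference between LPS and resting libraries for each factor and genotype, with 95% intervals from the edgeR fit (filled, adjusted p under 0.05; open, not). WT and 3'F points lie close together for Irf1, Irf2, Irf7 and Irf9, and the KO points for Irf7 (1.21) and Irf9 (0.49) lie below them.

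Before any LPS, KO cells held more mRNA of 4 factors than WT cells, Irf1, Irf5, Irf7 and Irf9, and of none less, where 5.12% of all genes were called higher. Irf7 was at 48.8, 32.0 and 815 CPM in KO against 7.16, 8.36 and 17.1 CPM in WT. Even the lowest KO library lay above the highest WT library, and the difference was 4.79 ± 0.94 (27.7-fold, adjusted p = 0.0055). Without resting KO replicate 3 it was 1.92 (adjusted p = 0.0073). Over the alternatives that kept every library the adjusted p ran from 2.6e-06 to 0.105.

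Irf1 was higher in resting KO by 1.44 ± 0.26 (2.72-fold, adjusted p = 0.0037) and by 1.21 without replicate 3. Irf9 was higher by 1.17 ± 0.20 (2.25-fold, adjusted p = 0.0029) and by 0.78 without replicate 3. Both had all 3 KO libraries above all WT libraries. Irf5 read 262, 263 and 373 CPM against 164, 204 and 201 CPM in WT, a difference of 0.66 ± 0.18 (adjusted p = 0.0274). That call was lost without resting KO replicate 3 (0.47, adjusted p = 0.11) and without each resting WT library in turn.

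The other 4 factors were not called. Irf2 (0.38 ± 0.13), Irf3 (0.28 ± 0.10) and Irf8 (0.38 ± 0.13) had KO libraries above all WT libraries but adjusted p of 0.0806, 0.0808 and 0.0894. How many of all genes separate in this way was not counted, here or in any other comparison, so it is description only. Irf4 overlapped at a log2 difference of −0.31 (95% interval −1.35 to 0.74). The median of the 8 was 0.52, against 0.02 over all genes. When the 2 resting groups alone were fitted, 1 factor was called, Irf1, as were 396 of 10851 genes (3.65%).

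Against resting 3'F cells, KO cells were higher for Irf7 (4.73 ± 0.94), Irf1 (1.38 ± 0.26), Irf9 (1.06 ± 0.20) and Irf5 (0.76 ± 0.18), 4 of 8 where 6.79% of all genes were called higher. The resting KO libraries stand in this and in the comparison with WT, so the 2 are not independent. Irf8 missed the threshold by little (0.42 ± 0.14, adjusted p = 0.0503). Without resting KO replicate 3 Irf7 stood at 1.85 and Irf5 was no longer called (0.57, adjusted p = 0.0502). Without resting 3'F replicate 3 all 4 were called (Irf7 at 4.69). With 1 library left out, Irf1 ranged from 1.15 to 1.52 and Irf9 from 0.67 to 1.25. A fit of the 2 groups alone called 0 of the 8 and 16 of 10944 genes in all.

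The marker lists moved with genotype beside these differences. The dendritic cell list summed to 79.4 to 155 CPM in resting KO and 165 to 227 CPM in KO with LPS, against 29.3 to 65.5 CPM in WT and 3'F. The macrophage list summed to 60518 to 62440 CPM in resting KO, 31771 to 47835 CPM in resting WT and 42652 to 62329 CPM in resting 3'F, whose range overlapped that of KO. Nearly all of the dendritic list was Itgax (24.6 to 226 CPM), an integrin subunit that macrophages also make. The other 7 dendritic markers, among them Flt3, Zbtb46 and Xcr1, were each at 1.64 CPM or less in every library. Fcgr1, a macrophage receptor induced by interferon, was at 236, 206 and 1136 CPM in resting KO replicates 1, 2 and 3. The part of these genes in the differences was not tested.

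With LPS, in KO against WT 0 of the 8 factors were called by edgeR, where 4.79% of all genes were called in either direction. At an unadjusted p under 0.05 there were 2, Irf1 and Irf3, as were 18% of all genes. DESeq2 called 0 of the 8 and 8.66% of all genes, and limma-voom with quality weights called Irf1 and 15.6% of all genes. Irf7 was 0.64 higher in KO (95% interval −1.02 to 2.31), with WT at 454, 221 and 653 CPM and KO at 709, 760 and 601 CPM, groups that overlapped. Irf1 was 0.64 ± 0.25 higher (adjusted p = 0.178, and 0.0394 without WT replicate 3 with LPS). Irf3 (0.25, 0.04 to 0.45), Irf9 (0.29, −0.13 to 0.70) and Irf8 (0.17, −0.11 to 0.46) had KO above all WT libraries without a call. The share of all genes that separate so was not counted.

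In KO against 3'F with LPS 0 of 8 were called, with 3.88% of all genes called. At an unadjusted p under 0.05 there were 2, Irf1 (0.67 ± 0.25) and Irf4 (−1.92 ± 0.74), where 16.9% of all genes passed. DESeq2 called 0 of the 8 (7.05% of all genes) and limma-voom called Irf1 (16.2%). Fitted on those 2 groups alone, Irf1 and Irf7 were called, at 0.64 each (adjusted p = 0.0286 for Irf1 and 0.00286 for Irf7), as were 1661 of 10916 genes, or 15.2%.

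Between 3'F and WT no factor was called in either state. At rest 0% of all genes were called by edgeR, 557 genes (4.9%) passing an unadjusted p under 0.05 and 2 being called by DESeq2. With LPS 0.00881% of genes were called. None of the 8 passed an unadjusted p under 0.05 in either state, and DESeq2 and limma-voom also called 0. Intervals were narrow for some members and wide for others. At rest the 95% interval ran from −0.05 to 0.36 for Irf3, from −0.33 to 0.25 for Irf8, from −0.49 to 0.61 for Irf1 and from −0.32 to 0.54 for Irf9. For Irf7 it ran from −1.78 to 1.90, a range that leaves a several-fold difference in either direction. Irf4 at rest lay lower in all 3'F libraries (0.468 to 1.27 CPM) than in WT (1.43 to 1.55 CPM), with a difference of −0.62 (−1.70 to 0.47) on 2 to 22 counts per 3'F library.

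**Figure D4:**
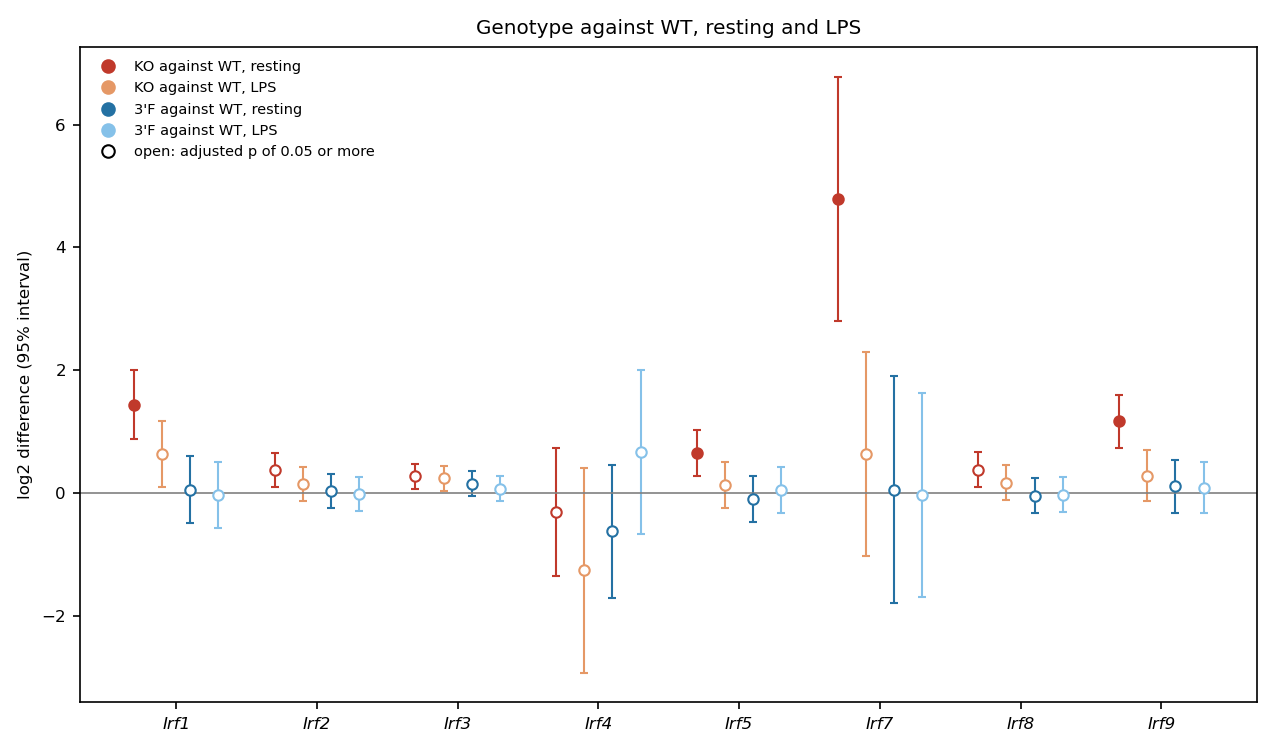
Log2 difference of KO and of 3'F from WT for each factor, resting and with LPS, with 95% intervals from the edgeR fit (filled, adjusted p under 0.05; open, not). Irf1, Irf5, Irf7 and Irf9 in resting KO are the filled points, and every 3'F interval includes 0.

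The difference between LPS responses was tested as an interaction. For KO against WT 0 of 8 factors were called by edgeR, as were 0.00881% of all genes. At an unadjusted p under 0.05 there were 3, Irf7 at −4.15 ± 1.17 (adjusted p = 0.507), Irf9 at −0.88 ± 0.28 (0.605) and Irf1 at −0.80 ± 0.36 (0.966), where 4.93% of all genes passed. DESeq2 and limma-voom called 0 of the 8, and 15 and 57 of all genes. Without resting KO replicate 3 the Irf7 interaction was −1.28. With 1 library left out, the interaction ranged from −1.07 to −0.50 for Irf9 and from −1.05 to −0.46 for Irf1. A smaller LPS response in KO than in WT was thus not established for any single factor. For 3'F against WT 0 of 8 were called, with 0% of all genes (203 genes, or 1.79%, at an unadjusted p under 0.05, and 0 called by DESeq2), and 0 members at an unadjusted p under 0.05. The interval ran from −2.57 to 2.39 for Irf7 and from −0.62 to 0.58 for Irf9.

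Likeness of pattern was measured as the root mean square difference in log2 CPM over the 18 libraries after each gene was centred on its own mean, among 10260 genes (10261 for Irf4). Irf7, whose level ranged over 6.80 log2 units, was most like Gbp3 (0.20), Ifi47 (0.26) and Isg15 (0.32), the first 2 interferon-inducible GTPases and the last a ubiquitin-like protein. Irf1 (range 3.31) was most like N4bp1 (0.24), Trafd1 (0.25) and Lacc1 (0.26), and Irf9 (1.96) most like Sema4a (0.15), Cd47 (0.16) and Zcchc2 (0.17). Irf4 had no close counterpart, Nav2 (0.45), Pdgfa (0.48) and Plxnc1 (0.49) being nearest at its low counts.

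The levels of Irf5, Irf2, Irf8 and Irf3 ranged less, over 1.54, 1.15, 1.01 and 0.45 log2 units. Irf5 was nearest to Atp13a1 (0.09), Zfp710 (0.11) and Csf2ra (0.12), Irf8 to Isg20l2 (0.09), Xab2 (0.10) and Mpeg1 (0.10), Irf2 to Adnp2 (0.10), Ube2q1 (0.10) and Papd4 (0.11), and Irf3 to Bcl2l13 (0.08), Taok2 (0.09) and Ppp4c (0.09). Within the family the closest pair was Irf3 and Irf8 (0.18) and the farthest Irf4 and Irf7 (3.49).

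The genes around the factors were followed in lists of upstream proteins, partners and targets, which were chosen with earlier results of these data known. The shares to read their counts against are those over all genes, called higher with LPS in 16.3% (WT), 17.2% (3'F) and 14.3% (KO) and in resting KO against WT in 5.12%. With LPS in WT 12.3% were called lower, and in resting KO against 3'F 6.79% were called higher. Without resting KO replicate 3 the shares higher were 20.2% for LPS in KO, 3.61% for resting KO against WT and 4.4% against 3'F. A list of 20 genes upstream of IRF3, IRF5 and IRF7 held receptors and sensors as well as adaptors and kinases. Of these 20, LPS raised 7 and lowered 1 in WT, with a median log2 difference of 0.20. The largest rises were of the RNA sensors Ddx58 (3.76) and Ifih1 (3.31) and of the endosomal receptor Tlr3 (1.99). In resting KO 4 of 20 were higher than in WT and 0 lower, Ddx58 most (2.71 ± 0.59), and 3 without replicate 3, where Ddx58 stood at 1.09 (adjusted p = 0.0276). Ddx58 read 79.6, 59.9 and 509 CPM in resting KO and 24.8, 31.6 and 42.6 CPM in resting WT.

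Of 10 genes of the interferon receptor arm and ISGF3, LPS raised 8 in WT, 7 in 3'F and 5 in KO, or 8 in KO without resting replicate 3. Stat2 (3.19 ± 0.55), a partner of IRF9, rose in WT. Ifnb1, the interferon gene itself, was at 0 in all resting WT libraries and at 0.698, 0.341 and 0.806 CPM with LPS, 26 reads in all. It was thus at least 7.9-fold higher, set against a floor of 3 counts over the resting group. It passed the filter on low counts only through groups where it is high. Its call, which the 8 in WT include, is thus no support.

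Of 16 target genes with an ISRE, LPS raised 16 in WT (median 5.96), 15 in 3'F (5.46) and 3 in KO (1.47). In resting KO 15 of 16 were higher than in WT (4.77), and 14 of 16 were higher than in 3'F (4.57). Without resting KO replicate 3, LPS raised 15 of 16 in KO (4.4) and 8 of 16 were higher in resting KO than in WT (1.81) and 7 of 16 higher than in 3'F (1.55). The antiviral gene Mx1 read 24.7, 16.0 and 922 CPM in resting KO and 2.04, 1.81 and 8.51 CPM in resting WT. All KO libraries lay above all WT libraries, and replicate 3 exceeded the others by more than 10 times, as with Irf7. Without it the difference of Mx1 was 2.39 and not called (adjusted p = 0.0556). Ccl5 (7.91), Mx1 (7.15) and Ifit2 (6.59) had the largest rises with LPS in WT. Ccl5 stood near the floor in resting WT, at 0.591, 0.753 and 1.35 CPM, so the size of its rise rests on a low baseline.

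Of 12 IRF1 targets LPS raised 10 in WT, 10 in 3'F and 5 in KO, or 11 in KO without resting replicate 3. Nos2 (6.29), the inducible nitric oxide synthase, and the GTPases Gbp2 (6.00) and Gbp5 (5.67) rose most in WT. Nos2 was near the floor in resting WT, at 0.066, 0.075 and 0.39 CPM, and at 8.03, 3.96 and 26.9 CPM with LPS. It passed the filter only through groups where it is high, so its call, which the 10 in WT include, is no support. In resting KO 5 of 12 were higher than in WT, with Gbp2 first (4.6 ± 0.95), and 2 without replicate 3, where Gbp2 stood at 1.58 (adjusted p = 0.0222). Gbp2 read 63.2, 43.7 and 1202 CPM in resting KO and 14.8, 11.2 and 28.3 CPM in resting WT.

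The lists for the other members moved less evenly. Of 3 tested IRF5 targets LPS raised 2 in WT, the cytokines Il12b and Tnf (1.66), and 3 in KO. Il12b was at 0 in all resting WT libraries and at 2.09, 9.69 and 7.77 CPM with LPS, at least 84.5-fold higher against the same floor. It passed the filter only through groups where it is high, so its calls in WT and KO, which the 2 and the 3 include, are no support. The list held 5 genes of the table, of which only those 3 passed the filter. Of 4 tested targets of IRF4 in alternative activation 1, Arg1, rose in WT (2.76), while Irf4 itself fell, 1 of 4 against 16.3% of all genes. Of 7 IRF8 targets with PU.1 LPS raised 2 in WT, the oxidase subunit Cybb (2.08) and the nuclear body protein Pml (2.01), and lowered 1, Klf4 (−1.22), counts near the shares of all genes. Tnf was also higher in resting KO (0.83 ± 0.21, and 0.94 without replicate 3). Pml was called higher in resting KO (1.53 ± 0.46) but read 22.6, 21.0 and 98.6 CPM there and 10.5, 20.8 and 17.5 CPM in resting WT, and without replicate 3 it stood at 0.43 and was not called (adjusted p = 0.402). Of 7 tested DNA-binding partners of IRF4 and IRF8, 5 rose in WT with LPS, Batf2 (3.54) and Batf (2.24) most, and in resting KO Ikzf1 was higher (0.76 ± 0.18), a call lost without replicate 3 (0.57, adjusted p = 0.063). Of 12 negative regulators and cofactors 7 rose with LPS in WT and 1 fell, led by the ISG15 protease Usp18 (5.18), Socs1 (3.96) and Socs3 (3.67). Near the floor in resting WT were Batf2 (0.328 to 1.26 CPM), Batf (0.657 to 0.753 CPM) and Socs1 (0.452 to 0.920 CPM). The sizes of their rises rest on a low baseline. Usp18 was 4.65 ± 0.90 higher in resting KO and 2.15 higher without replicate 3 (adjusted p = 0.00826), with 23.1, 15.9 and 298 CPM against 2.89, 4.44 and 6.19 CPM in resting WT. In 3'F against WT 0 genes of any list were called in either state by edgeR.

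**Figure D5:**
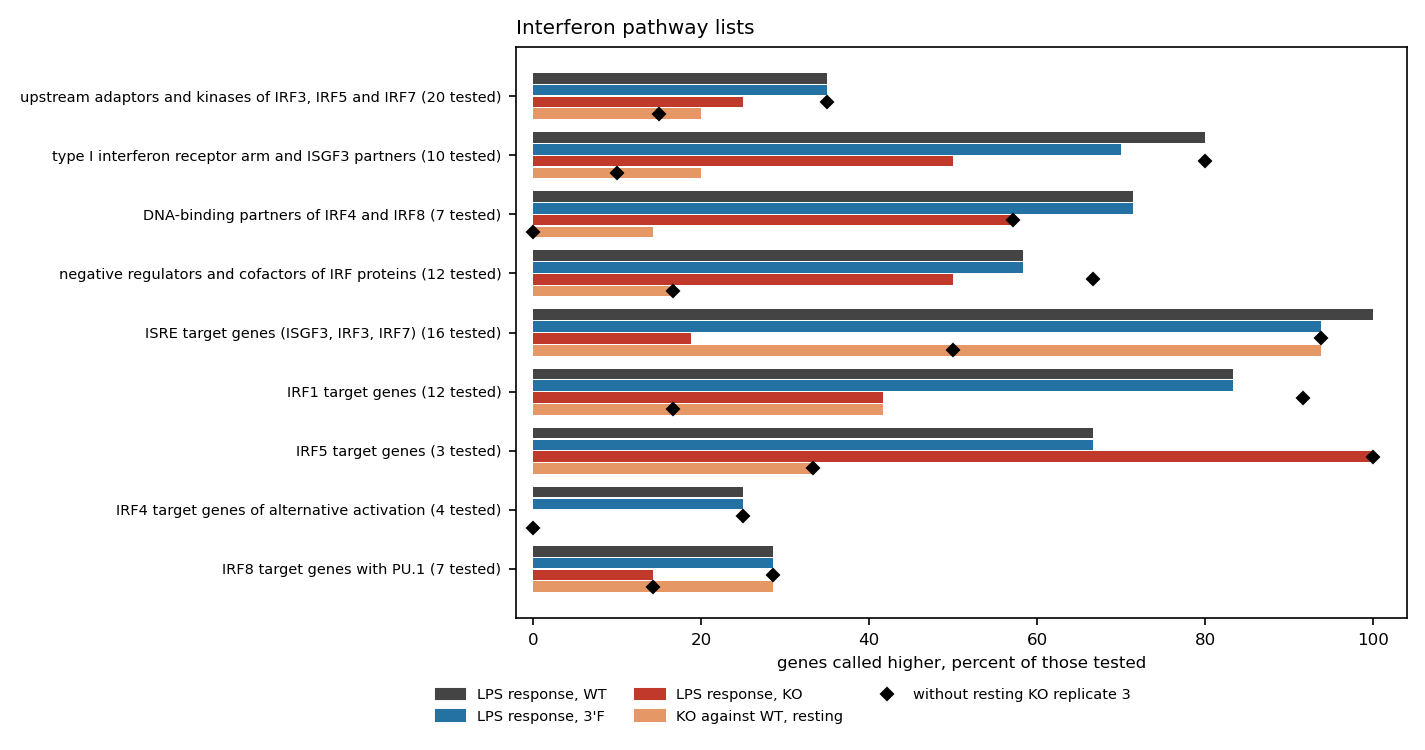
Percentage of the tested genes of each list called higher by edgeR, for the LPS response in WT, 3'F and KO and for KO against WT at rest (bars), and the same without resting KO replicate 3 (diamonds). The ISRE targets rose in 16 of 16 cases in WT and in 3 of 16 in KO, where the diamond lies at 15 of 16. The WT bars of the interferon receptor arm, IRF1 targets and IRF5 targets include Ifnb1, Nos2 and Il12b, whose calls are no support. The list named for adaptors and kinases also holds receptors and sensors.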

How the data were processed

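The authors deposited raw counts, whole numbers of reads per protein-coding gene. Per the labels they used cutadapt 1.8.3, HISAT2 2.1.0 on mm10 and featureCounts 1.5.3, counting reads on the sense strand with Gencode M15. Here edgeR 4.0.16 (R 4.3.3) kept 11357 genes with filterByExpr, scaled counts by TMM (factors 0.812 to 1.15) and fitted all 18 libraries with 1 coefficient per group. The quasi-likelihood test was two-sided, with Benjamini-Hochberg adjustment over all genes tested in each of 11 comparisons. The SE is the log2 difference divided by the square root of F. Every pair of replicates differed by more than counting noise. Counts of reads are not molecules, so counting intervals cover counting error only. The members and lists were chosen with earlier results of these data known. By rule the 8 members are named, with the 3 genes most like each, and from each list the called gene with the largest difference in resting KO against WT and up to 3 for LPS in WT. Some genes that the rule covers are not reported here. Irak1, Traf6, Itgax and Fcgr1 were added after their values were seen. DESeq2 1.42.0, limma-voom 3.58.1, other scalings, no filter, the compared groups alone, blocks and leaving out each library were alternatives. The labels give 3 mice per genotype and the 2 cultures share a letter. Resting and LPS libraries of the same letter were weakly correlated in their deviations from the group mean (r from 0.03 to 0.32), with 8 of 9 closest to their own number. The lowest r was that of KO replicate 2 (0.03). The 1 library not closest to its own number was KO replicate 3 (r = 0.04), closest to LPS replicate 2. The block of animals was read as pairing, while numbers were not taken to pair across genotypes. 123 exon bases of Irf9 (2.3%) overlap Rnf31 on the same strand, where reads cannot be assigned. Gene positions, 3′ UTRs and promoters come from GENCODE M21 and RefSeq on GRCm38. The procedure was tested on simulated data.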

Additional observations from a re-analysis of the deposited data

How the results depend on the processing

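Over the 8 comparisons other than 3'F against WT and its interaction, 410 log2 differences of members kept direction and call under alternatives with every library, 17 gained and 9 lost a call, and 10 turned direction. With 1 library left out the numbers were 405, 7, 10 and 10. The cause was not tested in any case. For LPS in KO the number of members called was 5 by limma-voom with quality weights, against 2. That fit also called 53.5% of all genes in place of 26.9%. With 1 library left out the number was 2 to 4, with 18.7% to 35.2% of all genes called and the 4 at 35.2%. For resting KO the compared groups alone called 1 member against WT (3.65% of all genes) and 0 against 3'F (0.146%), in place of 4 each (9.4% against WT). With LPS, KO against WT gave 1 by limma-voom (15.6% of all genes), against 0. With 1 library left out it gave 0 to 1, with 1.56% to 3.61% of all genes called and the 1 at 3.61%. With LPS, KO against 3'F gave 2 for the compared groups alone (15.2% of all genes) and 1 by limma-voom (16.2%), against 0.

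The turns in direction were all in uncalled differences. Scaling by library size alone gave −0.18 (Irf3) and −0.17 (Irf8) for LPS in WT, −0.24 (Irf3) for LPS in KO, −0.10 (Irf8) for LPS in 3'F, and with LPS −0.0080 and −0.060 for Irf5 in KO against WT and against 3'F. It called Irf8 lower with LPS in KO (−0.39), moved the median of all genes in the LPS responses to −0.24 (WT), −0.26 (KO) and −0.21 (3'F), and moved the share of higher among called genes in WT from 57.0% to 26.7%. The LPS response of Irf3 in KO was −0.016 with no filter and −0.012 for the compared groups alone, that of Irf8 in 3'F −0.012 by limma-voom, and the KO interaction of Irf3 0.0056 by limma-voom.

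With 1 library left out, LPS in KO ranged from −0.034 to 0.091 for Irf3, −0.31 to 0.067 for Irf5 and −0.22 to 0.030 for Irf8, and LPS in 3'F from −0.10 to 0.047 for Irf3 and −0.068 to 0.19 for Irf8. With LPS, Irf5 ranged from −0.0091 to 0.20 in KO against WT and from −0.059 to 0.15 in KO against 3'F, and the KO interaction of Irf3 from −0.067 to 0.018. The replicate block of animals called 3 members for LPS in KO (Irf7 at 2.9), with 26.6% of all genes called. It changed no other call, and blocking on the number across genotypes changed none. Irf4 had at most 26 reads per library, so depth limits its values.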
